A study of Mus musculus with 6 samples.

Results

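The 58 genes described here encode the machinery of mitosis, the part of the cell cycle in which replicated chromosomes are condensed, attached to the spindle, checked, separated and divided between daughter cells. They were chosen by name, with earlier results of these data known. Each symbol was looked up through the RefSeq transcripts of the authors' deposited table. Each gene was represented by its transcript with the highest base mean, the authors' mean normalized count over all libraries. Of these 58 genes, 38 carried an adjusted p-value per the authors' deposited table, out of 11038 named genes that had one.

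RNA was sequenced from primary mouse epidermal keratinocytes, the cells of the outer skin, after transfection. In 3 libraries the cells had received pro-miR-148a at 200 nM, which raises the microRNA miR-148a, and in the other 3 they had received the control small RNA, miR-Control. Both groups were wild-type C57BL/6 cells taken from the skin of pups at postnatal day 1 to 3, kept at 0.05 mM calcium, a low concentration that favours division over differentiation, and collected 48 h after transfection. The labels do not say whether the 3 libraries of a group came from separate cultures or litters, or how many pups were pooled, so the p-values may measure technical spread alone. The titles count the pro-miR-148a libraries as rep 1 to 3, but 2 of them, rep 1 and rep 3, also carry the same sample number, 1, while the miR-Control libraries carry 1, 2 and 3. Whether those 2 libraries share a source cannot be told from the labels.

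In the dividing cell, cyclin A and B with the kinase Cdk1 drive entry into mitosis. The Aurora and Polo kinases build the spindle, kinesins move and cross-link its microtubules, and kinetochores tie chromosomes to it. The spindle checkpoint holds the anaphase-promoting complex (APC/C) back until all chromosomes are attached, after which securin and the cyclins are destroyed and the cell divides. In the epidermis these genes are expressed in the proliferating basal layer and are switched off as keratinocytes leave it. Many of them share promoter elements that hold them silent in resting cells and active late in the cycle.

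The authors' deposited table holds no value per library, and which group stands on top of its fold changes is not named. Its sign was set by the pairing of miR-148a-3p with messages. The mature microRNA, shown with its seed (bases 2 to 8) in capitals, is in RefSeq (GRCm38.p6) at chr6:51269829-51269850 on the minus strand.
miR-148a-3p: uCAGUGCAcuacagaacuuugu
Genes whose longest 3' untranslated region (UTR) holds TGCACTG, the match to this seed, had the higher values as deposited, and microRNAs lower the messages they pair with. All fold changes were therefore turned so that a positive log2 value is higher with pro-miR-148a. In that reading 1470 genes with the site lay at -0.07 (median log2 fold change), against 0.01 in 8563 genes without it, and Rock1, the gene of a contractility kinase that is a known target, was lower (log2 fold change -0.26 ± 0.09 SE, adjusted p = 0.0106 per the authors' deposited table). The shift is small beside the changes below, and every direction in the text turns together with it. Genes with and without the site were not matched for UTR length, and a shift tied to UTR length was not tested.

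Genes of mitosis were higher with pro-miR-148a in nearly every case that could be measured well. At an adjusted p under 0.05 in the authors' own DESeq2-type test, 32 of 38 tested genes rose, none fell and 6 did not pass, per the authors' deposited table, whereas 16.7% of all genes tested rose and 16.8% fell. Of the 50 genes with any p-value, 34 were higher and 0 lower at an unadjusted p under 0.05. Where the base mean reached 100, 32 of 33 rose, beside 26.4% that rose, 23.4% that fell and 49.7% that did either among all 6423 such genes. Either change was called for 33.5% of all genes tested. The median log2 fold change of the 38 genes was 0.83, which is 1.77-fold, against -0.01 over all genes tested. The 32 risers lay between 1.31-fold for Cks2 and 2.57-fold for Cdc25c, 10 of them above 2-fold, and 30 of them stood among the 1103 highest of all 11038 log2 fold changes. In a bulk measurement, more dividing cells and more of each message per dividing cell cannot be told apart.

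**Figure D1:**
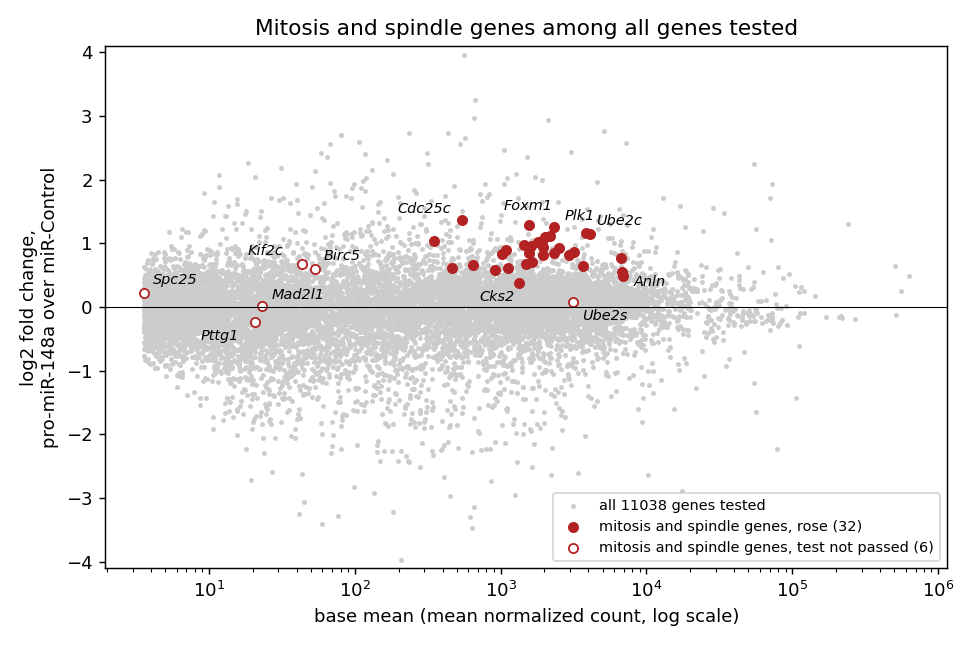
Log2 fold change (pro-miR-148a over miR-Control, vertical) against base mean (log scale, horizontal) for all 11038 genes tested in grey and for the 38 tested mitosis and spindle genes in red, filled where they rose. The 32 filled points form a narrow band between 0.39 and 1.36 at base means of 351 to 6870; of the 6 open points, Ube2s is the one at a high base mean.

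The risers spread over log2 fold changes of 0.39 to 1.36. The authors' standard errors (SE) of the risers were between 0.08 and 0.16 log2 units. When the risers were ordered by fold change, the 95% intervals (1.96 SE on each side) of all 31 neighbouring pairs overlapped. With 32 values in this range and errors of this size, such overlap was nearly fixed beforehand. It cannot show whether the range holds a gap. The intervals of 8 risers (Cdc25c, Foxm1, Plk1, Ube2c, Ccnb1, Ccnb2, Ncaph and Cdca8) lay wholly above the median of the 38 genes. The intervals of 6 (Cks2, Anln, Top2a, Kif15, Aurkb and Cdc20) lay wholly below it, and 18 included it. Differences between single genes were not tested, since errors of genes measured in the same libraries are not independent. Size of change and abundance showed almost no common order: across the 32 risers the rank correlation of base mean and log2 fold change was 0.04, as a description over genes that share the same libraries.

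**Figure D2:**
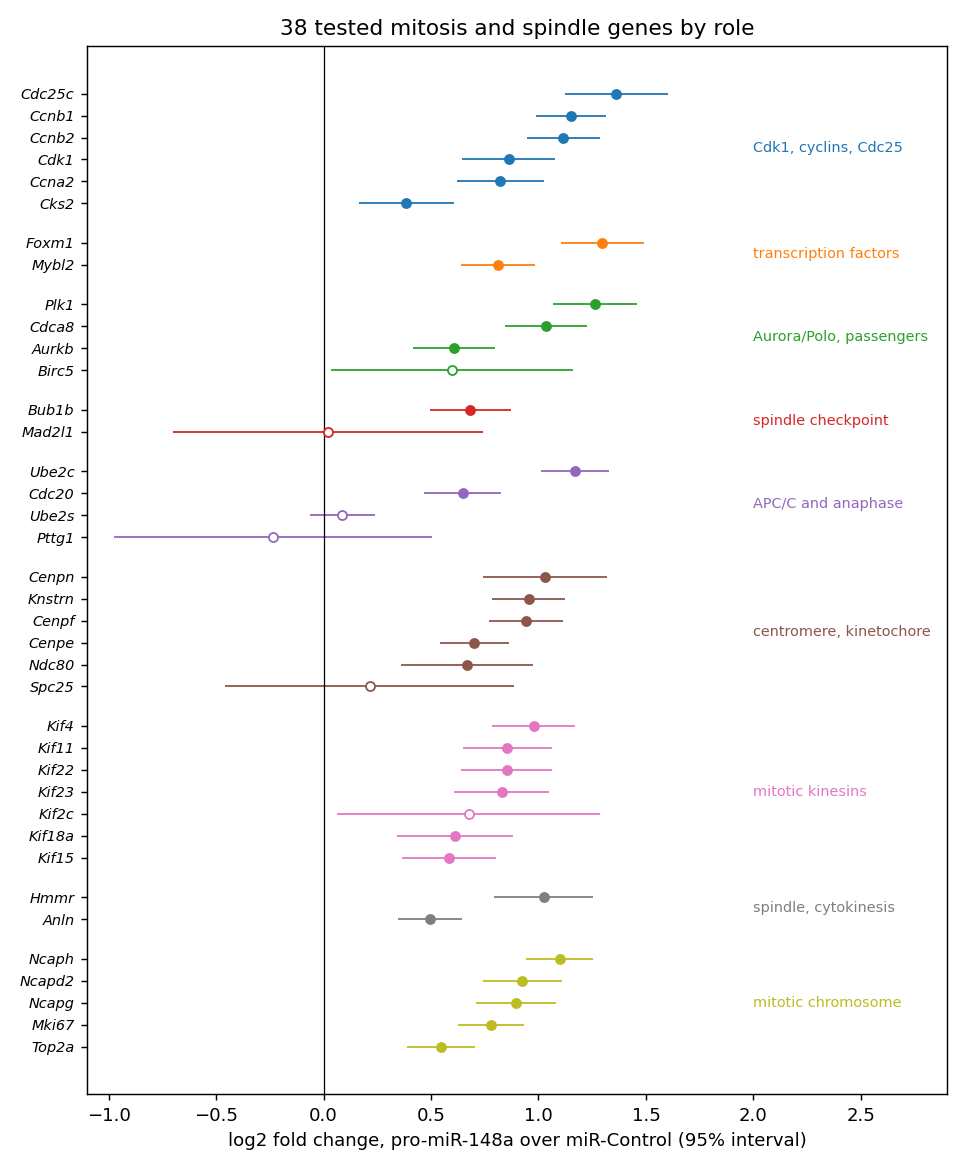
Log2 fold change (pro-miR-148a over miR-Control) of the 38 tested genes, grouped by role; points are the values of the authors' deposited table with the sign turned, bars are 95% intervals, and open points did not pass the test. All 32 filled points lie to the right of 0, and the intervals of Mad2l1, Spc25 and Pttg1 are the widest.

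The promoters of these genes share letters that the choice of members did not use. In cell cycle promoters the cell cycle genes homology region (CHR, TTTGAA or TTCGAA) is bound by the MuvB complexes, which repress with the DREAM proteins in resting cells and activate with B-Myb and FoxM1 late in the cycle, and the CCAAT box is bound by NF-Y. RefSeq promoter windows (GRCm38.p6, 250 bases before to 50 after each annotated start) were at hand for 49 of the 58 genes, as 52 windows. A CHR on either strand was found in 39 of 52 windows (75.0%), beside 13.9% of the 10125 windows of genes tested and 19.2% of all 32851 windows. CCAAT on either strand stood in 36 of 52 (69.2%), beside 37.4% of the windows of genes tested, and both motifs in 33 (63.5%), beside 5.81%. The E2F forms TTTGGCGC, TTTCCCGC, TTTGCCGC and TTTCGCGC, on either strand, stood in 5 windows (9.62%), beside 3.83%. TTCGAA reads the same on both strands. A CHR and a CCAAT match shared bases in 1 of the 52 windows, and neither shared bases with an E2F form. A match is a description of letters, not a bound site.

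The windows of 5 genes are shown because these genes hold the range of the results: Plk1, Ube2c, Ccnb2 and Ccnb1 are among the highest risers, and Ube2s, the well counted gene that did not pass, is set beside its partner Ube2c. Capitals mark CHR and CCAAT matches on either strand. The windows are chr7:122159185-122159484 on the plus strand for Plk1, chr2:164769679-164769978 on the plus strand for Ube2c, chr9:70421505-70421804 on the minus strand for Ccnb2, chr13:100786437-100786736 on the minus strand for Ccnb1 and chr7:4812291-4812590 on the minus strand for Ube2s.
Plk1: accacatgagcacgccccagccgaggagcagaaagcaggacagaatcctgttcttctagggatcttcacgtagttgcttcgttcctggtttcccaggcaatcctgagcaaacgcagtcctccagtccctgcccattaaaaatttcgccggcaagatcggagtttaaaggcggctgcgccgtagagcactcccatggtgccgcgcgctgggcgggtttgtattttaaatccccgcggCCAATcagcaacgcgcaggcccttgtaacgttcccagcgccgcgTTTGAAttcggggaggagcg
Ube2c: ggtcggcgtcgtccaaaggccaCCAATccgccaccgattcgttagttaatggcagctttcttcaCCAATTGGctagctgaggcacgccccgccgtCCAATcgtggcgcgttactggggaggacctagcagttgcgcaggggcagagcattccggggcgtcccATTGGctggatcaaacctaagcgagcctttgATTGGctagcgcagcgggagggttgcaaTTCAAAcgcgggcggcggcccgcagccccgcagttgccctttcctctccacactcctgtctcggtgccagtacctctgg
Ccnb2: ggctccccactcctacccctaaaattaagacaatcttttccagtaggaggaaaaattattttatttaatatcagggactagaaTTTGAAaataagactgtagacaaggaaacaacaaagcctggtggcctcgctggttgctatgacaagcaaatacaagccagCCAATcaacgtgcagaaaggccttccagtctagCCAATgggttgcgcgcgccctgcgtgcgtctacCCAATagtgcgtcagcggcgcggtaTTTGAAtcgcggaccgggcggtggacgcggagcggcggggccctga
Ccnb1: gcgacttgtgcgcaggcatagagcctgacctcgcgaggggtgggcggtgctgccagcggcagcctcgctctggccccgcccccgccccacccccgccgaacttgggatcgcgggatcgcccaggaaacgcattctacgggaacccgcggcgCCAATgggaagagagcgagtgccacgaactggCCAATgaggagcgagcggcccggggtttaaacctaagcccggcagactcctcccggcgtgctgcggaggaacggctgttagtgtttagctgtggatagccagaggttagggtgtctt
Ube2s: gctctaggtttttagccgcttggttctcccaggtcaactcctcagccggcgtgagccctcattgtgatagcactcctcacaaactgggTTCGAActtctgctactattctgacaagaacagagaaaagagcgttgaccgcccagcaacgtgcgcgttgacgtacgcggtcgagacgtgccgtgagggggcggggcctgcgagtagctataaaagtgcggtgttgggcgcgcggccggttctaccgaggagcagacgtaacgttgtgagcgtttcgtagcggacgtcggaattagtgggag
Positions are those of a match's first base, counted from 0 at the start. Plk1 had 1 CCAAT match at -14 and 1 CHR match at 30. Ube2c had 6 CCAAT matches, a pair of which overlap on opposite strands, and a CHR match at -29. Ccnb2 had 3 CCAAT matches and 2 CHR matches, the nearer of which is at 4. Ccnb1 had 2 CCAAT matches and no CHR of these letters. Ube2s had no CCAAT match, and its single CHR match, the TTCGAA form, lies at -162. Of the 28 risers with a window, 21 had a CHR (75.0%), the same share as in all member windows, which include those of the risers. Ube2s was the only well counted member that did not rise, so whether such matches mark the risers cannot be told. Neither motif was found in 10 of the 52 windows, 4 of them of the risers Knstrn, Ncaph, Mybl2 and Kif18a.

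**Figure D3:**
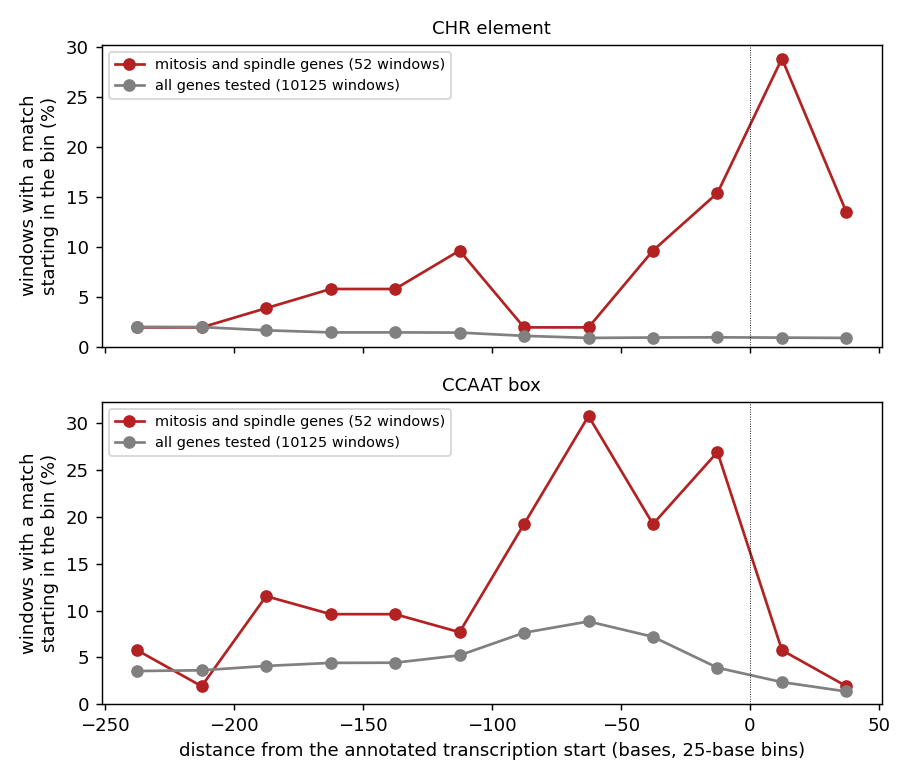
Share of promoter windows with a CHR (top) or CCAAT (bottom) match that starts in each 25-base bin, against distance from the annotated transcription start, for 52 windows of mitosis and spindle genes in red and 10125 windows of genes tested in grey. CHR matches of the mitosis and spindle genes were most frequent in the first 25 bases after the start (28.8% of windows, beside 0.899%), and CCAAT matches 75 to 50 bases before it (30.8%, beside 8.84%).

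Cdk1, its cyclins and their partners rose together: 6 of 6 tested genes rose, with a median log2 fold change of 0.99. Risers made up 16.7% of all genes tested and 26.4% at a base mean of at least 100. Cdc25c, a phosphatase that switches Cdk1 on, had the highest value of all 38 genes per the authors' deposited table, at 1.36 ± 0.12 SE (2.57-fold, adjusted p = 2.55e-27, base mean 547). The B-type cyclins Ccnb1 (1.15 ± 0.08 SE, adjusted p = 1.4e-41) and Ccnb2 (1.12 ± 0.09 SE, adjusted p = 2.16e-36) rose by nearly the same amount per the authors' deposited table. Cyclin A2, Ccna2, and Cdk1 itself stood lower in the same order, at log2 0.82 ± 0.10 SE and 0.86 ± 0.11 SE per the authors' deposited table. Cks2, the small subunit that docks on Cdk1, had the lowest value of the risers (0.39 ± 0.11 SE, 1.31-fold, adjusted p = 0.00301 per the authors' deposited table). Cdc25b, a related phosphatase, had no adjusted p, and the higher of its 2 transcripts had a base mean of 1.98 per the authors' deposited table.

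The transcription factors that drive late cell cycle genes were both higher. Foxm1 rose 2.46-fold (1.30 ± 0.10 SE, adjusted p = 5.68e-38) and Mybl2, which encodes B-Myb, 1.76-fold (0.81 ± 0.09 SE) per the authors' deposited table. In the list of MuvB, DREAM and NF-Y genes, which act on such promoters, the test called 1 of 7 higher and 1 lower (14.3% each), near the 16.7% and 16.8% of all genes tested, and the median was 0.10. E2f5, a DREAM factor, rose 1.63-fold and Nfyb, an NF-Y subunit, fell 1.36-fold per the authors' deposited table. The MuvB subunit genes Lin9 and Lin37 had no adjusted p.

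Of the Aurora and Polo kinases with their partners, 3 of 4 tested genes rose. The share of risers was 16.7% over all genes tested and 26.4% at a base mean of at least 100. Plk1, the Polo kinase of centrosome maturation and kinetochore attachment, rose 2.40-fold (1.26 ± 0.10 SE, adjusted p = 5.23e-35, base mean 2314) per the authors' deposited table. The chromosomal passenger complex corrects faulty attachments. Its subunit gene Cdca8 (borealin) rose 2.05-fold and its kinase gene Aurkb 1.52-fold (1.03 ± 0.10 SE and 0.61 ± 0.10 SE) per the authors' deposited table. Birc5, the passenger protein survivin, had a log2 value of 0.60 ± 0.29 SE and did not pass (adjusted p = 0.101), at a base mean of 53.2 per the authors' deposited table. Aurka, its activator Tpx2, the passenger scaffold Incenp and the centriole kinase Plk4 had no adjusted p.

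The spindle checkpoint could be judged from 1 well counted gene. Bub1b, which encodes the checkpoint kinase-like protein BubR1, rose 1.61-fold (0.68 ± 0.10 SE, adjusted p = 2.64e-11) per the authors' deposited table. Mad2l1 had a log2 fold change of 0.02 ± 0.37 SE at a base mean of 23.3 per the authors' deposited table, which leaves room for a change of either sign (95% interval -0.70 to 0.74). For Bub1, Bub3 and Ttk there was no adjusted p.

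The genes that turn the APC/C on and carry out anaphase split. Ube2c encodes the E2 enzyme that starts ubiquitin chains on APC/C substrates, and Ube2s the E2 that lengthens them. Ube2c rose 2.25-fold (1.17 ± 0.08 SE, adjusted p = 3.45e-45, base mean 3833) per the authors' deposited table. Ube2s, counted about as deeply (base mean 3135), had a log2 fold change of 0.09 ± 0.08 SE and did not pass (adjusted p = 0.448 per the authors' deposited table). The 95% interval of Ube2s, -0.06 to 0.24, lies below that of every riser except Cks2, whose interval (0.16 to 0.61) overlaps it. Cdc20, the activator through which the checkpoint acts, rose 1.57-fold (0.65 ± 0.09 SE) per the authors' deposited table. Pttg1, securin, had a base mean of 20.6 and a log2 fold change of -0.24 ± 0.38 SE (adjusted p = 0.712) per the authors' deposited table, so its direction was not measured. Separase, Espl1, had no adjusted p. Among the other APC/C genes 5 of 10 rose (50%) and 1 fell (10%), with a median of 0.20. Either change was called for 60%, beside 33.5% of all genes tested and 49.7% at a base mean of at least 100. Fbxo5, the APC/C inhibitor Emi1, was higher (log2 0.58 ± 0.13 SE) and the subunit gene Anapc7 lower (log2 -0.34 ± 0.07 SE) per the authors' deposited table.

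Centromere and kinetochore genes rose in 5 of 6 tested cases. Cenpn, which reads the centromeric nucleosome, rose 2.04-fold (1.03 ± 0.15 SE) at a base mean of 351, the lowest of the risers, per the authors' deposited table. Knstrn, a spindle and kinetochore adaptor, rose 1.94-fold, and the large corona protein gene Cenpf 1.92-fold, per the authors' deposited table. The kinetochore motor gene Cenpe rose 1.63-fold (0.70 ± 0.08 SE) per the authors' deposited table. Of the 4-part Ndc80 complex, which grips microtubules, Ndc80 rose 1.59-fold (0.67 ± 0.16 SE, adjusted p = 0.000125) and Spc25, at a base mean of 3.56, did not pass, per the authors' deposited table. Nuf2 and Spc24 were listed at 0, and Cenpa, the centromeric histone, had no adjusted p. Of the other outer kinetochore and checkpoint genes 12 of 16 rose (75%) and none fell, with a median of 0.49. Of all genes tested 16.7% rose, and 26.4% at a base mean of at least 100. The risers of this list ran from Zwilch at 1.27-fold to Pmf1 at 2.20-fold (base mean 84.1) per the authors' deposited table. Of the inner centromere genes 8 of 13 rose (61.5%) and none fell (median 0.47), from Cenpb at 1.16-fold to Cenph at 1.73-fold per the authors' deposited table.

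Mitotic kinesins gave an even picture, with 6 of 7 tested genes higher and a median of 0.83. Risers made up 16.7% of all genes tested and 26.4% at a base mean of at least 100. Kif4, which packs chromosomes and sets the length of the midzone, rose 1.97-fold (0.98 ± 0.10 SE) per the authors' deposited table. Kif11, the motor that pushes spindle poles apart, the chromosome arm motor Kif22 and the cytokinesis motor Kif23 rose by 1.81-, 1.80- and 1.78-fold per the authors' deposited table. Kif18a, which damps chromosome swings, and Kif15, the motor that can stand in for Kif11, rose by log2 0.61 ± 0.14 SE and 0.58 ± 0.11 SE per the authors' deposited table. Kif2c, a microtubule depolymerase, had a log2 value of 0.68 ± 0.31 SE and did not pass (adjusted p = 0.0871) at a base mean of 43.3 per the authors' deposited table. Kif20a had no adjusted p, and both transcripts of Kif20b were listed at 0.

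Both tested genes of the spindle and cytokinesis group rose. Hmmr, a spindle pole protein also known as the hyaluronan-mediated motility receptor, rose 2.03-fold (1.02 ± 0.12 SE) per the authors' deposited table. Anln, the actin-binding anillin of the cleavage furrow, had the highest base mean of the 58 genes (6870) and rose 1.41-fold (0.49 ± 0.08 SE, adjusted p = 1.02e-09) per the authors' deposited table. Nusap1, Prc1, Racgap1 and Ect2 had no adjusted p. A further list of spindle and cytokinesis genes gave 13 risers of 16 tested (81.25%) and none that fell, with a median of 0.84. The share of risers was 16.7% over all genes tested and 26.4% at a base mean of at least 100. The midbody kinase gene Cit was the highest of that list, 2.10-fold up per the authors' deposited table.

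All 5 tested genes of the mitotic chromosome rose, beside 16.7% of all genes tested and 26.4% at a base mean of at least 100. Condensin I compacts chromosomes after the nuclear envelope breaks, and its subunit genes Ncaph, Ncapd2 and Ncapg rose by 2.14-, 1.90- and 1.86-fold (log2 1.10 ± 0.08, 0.93 ± 0.09 and 0.90 ± 0.09 SE) per the authors' deposited table. The condensin II subunit genes Ncapd3 and Ncapg2, which act earlier in the nucleus, rose by 1.27- and 1.23-fold (0.34 ± 0.10 and 0.29 ± 0.09 SE) per the authors' deposited table. The 95% intervals of the condensin I genes begin at 0.71 and those of the condensin II genes end at 0.53, but the difference between the complexes was not tested. Mki67, the coat protein of mitotic chromosomes used as a proliferation marker, rose 1.71-fold and Top2a, which untangles sister DNA, 1.46-fold per the authors' deposited table. Smc2 and Smc4, the core subunits shared by both condensins, had no adjusted p.

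Per kilobase of transcript, Ube2c had the highest level of the 38 genes, at a base mean of 3964 per kilobase. Ube2s (2532), Cdc20 (2051), Cks2 (1936) and Ccnb1 (1657) followed in base mean per kilobase, and Kif18a (137) was the lowest of the risers. These are levels averaged over all libraries. Errors of levels are not in the table, so the order of near neighbours is not separated.

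The 20 genes without an adjusted p were those with several RefSeq transcripts. All 33 of the 58 genes with 1 transcript in the list that the authors deposited were tested, at base means of 351 to 6870. Of the 25 genes with 2 or more transcripts, 5 were tested, none had a base mean above 53.2, and 8 were listed at 0 in each transcript. Over the whole table, 50.5% of genes with 1 transcript and 30.6% of genes with 2 or more had an adjusted p. How reads that match several transcripts were counted is not stated in any source at hand, and its part in these low values was not tested. A gene listed at 0, such as Tpx2, Bub1 or Prc1, is therefore not a measurement of absence.

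**Figure D4:**
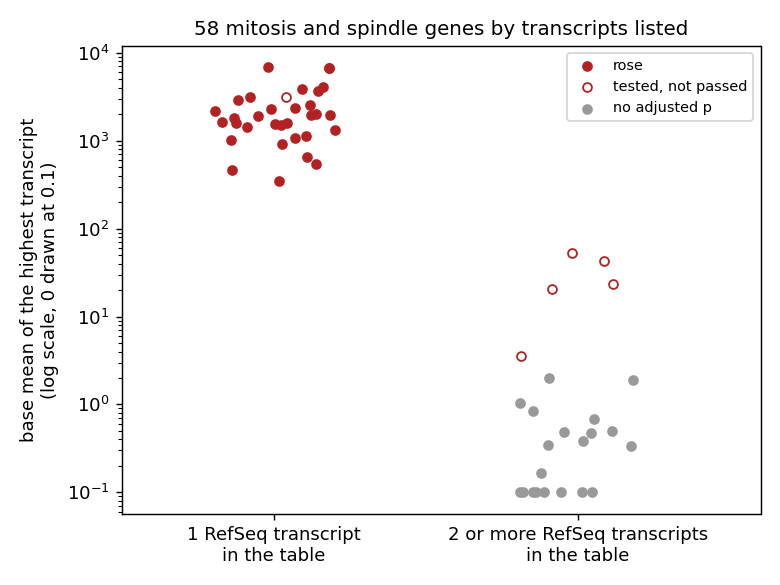
Base mean of the highest transcript (log scale, with 0 drawn at 0.1) of the 58 mitosis and spindle genes, split by the number of RefSeq transcripts per the authors' deposited table. The 33 genes with 1 transcript lie between 351 and 6870, and the 25 genes with 2 or more lie at 53.2 or below.

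Matches to the whole miR-148a-3p seed were about as frequent among these genes as elsewhere, and matches to part of it were less frequent. In the longest 3' UTR, 6 of 38 tested genes had TGCACTG (15.8%), beside 14.7% of 10033 genes searched, and 2 of the 6 had the 8-base form TGCACTGA. As the best match, GCACTGA stood in 0 tested genes, beside 6.62% of genes searched, and GCACTG in 3 (7.89%), beside 15.3%. The median UTR was 541.5 bases in the tested members and 1128 bases in all genes searched. The sites of the 5 risers that carry one are shown with the match in capitals, in 30 bases of UTR from GENCODE M21 (GRCm38), since they are the risers with a direct match to the microRNA. They lie at chr7:122169628-122169657 on the plus strand for Plk1, chr11:69051459-69051488 on the plus strand for Aurkb, chr3:36565426-36565455 on the minus strand for Ccna2, chr10:69336898-69336927 on the minus strand for Cdk1 and chr2:118835991-118836020 on the plus strand for the first of 2 sites in Knstrn.
Plk1: agctctgagccTGCACTGtaggctcctggg
Aurkb: caaaacacccaTGCACTGActtttaagaaa
Ccna2: gccttctggttTGCACTGgtctgagctctg
Cdk1: acaaaagccgtTGCACTGgtttgacagcta
Knstrn: gtctcatggagTGCACTGcgctgctgctgt
The site begins at base 49 of 283 in the Plk1 UTR and, as an 8mer, at base 409 of 603 in that of Aurkb. Their log2 fold changes were 1.26 for Plk1, 0.61 for Aurkb, 0.82 for Ccna2, 0.86 for Cdk1 and 0.95 for Knstrn per the authors' deposited table. The sixth gene with a site, Mad2l1, did not pass the test. Because the sites set the sign of the table, these values are no test of pairing.

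Other cell cycle genes moved less evenly. Over 13 lists of cell cycle genes that are not among the 58, 71 of 144 tested genes rose (49.3%) and 8 fell (5.56%), with a median of 0.30. Of all genes tested 16.7% rose and 16.8% fell, and 26.4% and 23.4% at a base mean of at least 100. The count of risers was 40 under a Bonferroni adjustment and 30 when at least 1.5-fold was required. In the DNA replication list 13 of 23 rose (56.5%) and none fell, with a median of 0.42. Its risers ran from Pcna, the sliding clamp, at 1.19-fold to Rrm2, a ribonucleotide reductase subunit, at 2.02-fold per the authors' deposited table. Cohesin genes rose in 6 of 9 cases (66.7%) and none fell, with a median of 0.22. The establishment factor gene Esco2 was 2.08-fold and the ring subunit gene Rad21 1.13-fold higher per the authors' deposited table. Centrosome and gamma-tubulin genes were near the background, with 3 of 16 higher (18.8%, beside 16.7% of all genes tested) and none lower. Of these, the augmin subunit genes Haus5 and Haus4 were 1.89-fold and 1.23-fold higher per the authors' deposited table. Of 6 septins 1 rose (16.7%, the share of all genes tested) and 2 fell (33.3%, beside 16.8%). Septin11 was 1.25-fold higher and Septin5 1.59-fold lower per the authors' deposited table.

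**Figure D5:**
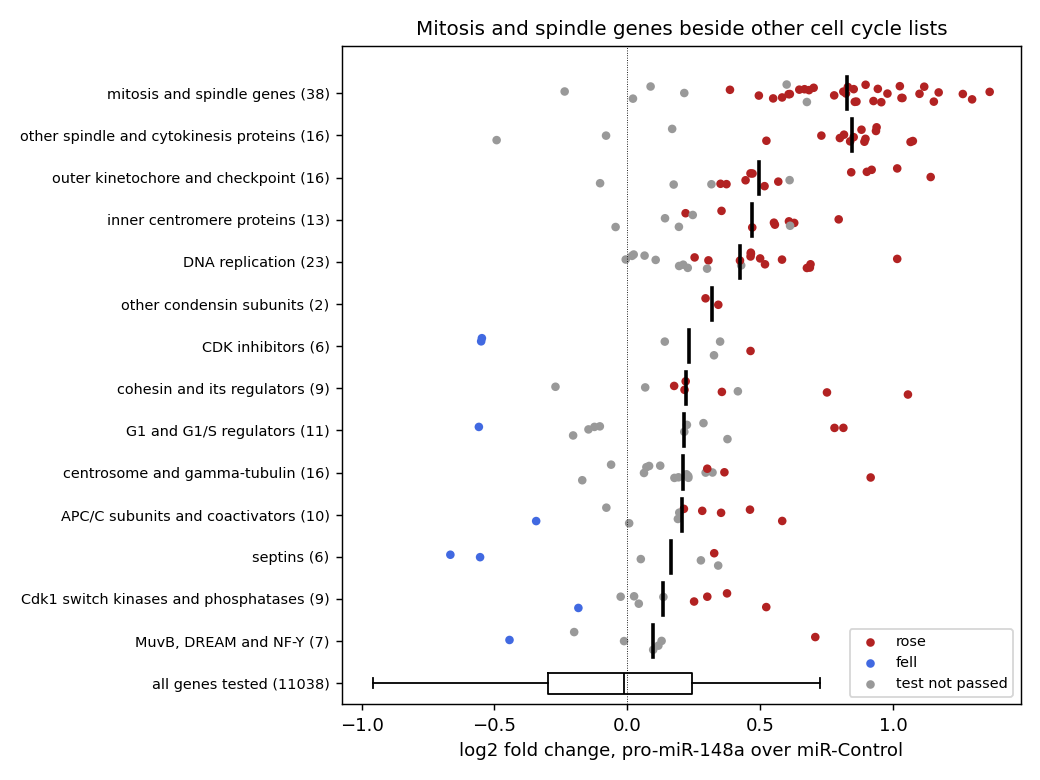
Log2 fold changes (pro-miR-148a over miR-Control) of the tested mitosis and spindle genes and of 13 other cell cycle lists, with the number tested in brackets; each point is a gene coloured by the authors' adjusted p at 0.05, black bars are medians, and the box for all genes tested shows quartiles with whiskers at the 5th and 95th percentiles. Medians run from 0.84 in other spindle and cytokinesis genes and 0.83 in mitosis and spindle genes to 0.10 in MuvB, DREAM and NF-Y genes.

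Among regulators upstream of mitosis, those of G1 and G1/S were called about as often as genes in general. Of 11 tested G1 and G1/S regulators 2 rose (18.2%) and 1 fell (9.09%), beside 16.7% and 16.8% of all genes tested. Ccnd1, cyclin D1, rose 1.76-fold and Rb1, the retinoblastoma protein that restrains E2F, fell 1.47-fold per the authors' deposited table. The second riser, Ccne1 (cyclin E1, 1.72-fold per the authors' deposited table), was named after its value was seen. Of 6 tested CDK inhibitors 1 rose, 2 fell and 3 did not pass. That is 50% called in either direction, beside 33.5% of all genes tested and 49.7% of those with a base mean of at least 100. Cdkn1b (p27) fell by 0.55 ± 0.07 SE and Cdkn2b (p15) by 0.55 ± 0.11 SE, while Cdkn2d (p19) rose by 0.46 ± 0.19 SE (adjusted p = 0.0464), on the log2 scale of the authors' deposited table. Cdkn1a (0.33 ± 0.36 SE), Cdkn2a (0.35 ± 0.39 SE) and Cdkn2c (0.14 ± 0.13 SE) did not pass per the authors' deposited table. Of the kinases and phosphatases that set the Cdk1 switch 4 of 9 rose (44.4%) and 1 fell (11.1%). Of all genes tested 16.7% rose and 16.8% fell, and 26.4% and 23.4% where the base mean reached 100. Either change was called for 55.6% of this list, beside 33.5% and 49.7% in those sets. Cdc25a was 1.44-fold higher and the phosphatase inhibitor gene Ensa 1.14-fold lower per the authors' deposited table.

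The authors' own category analysis gave no mitotic category past its threshold, over a limited set of categories. Their deposited GO table has 951 categories, of which 16 have names with mitosis or the mitotic cell cycle, spindle, kinetochore, centromere or cytokinesis. None of the 16 had an adjusted p for over-representation under 0.05 per the authors' deposited table, where 5 categories in all did, and 2 of the 16 had an unadjusted p under 0.05. Those categories were mitotic sister chromatid segregation, with 6 changed genes of 20 (p = 0.0329), and mitotic cytokinesis, with 5 of 13 (p = 0.0494), per the authors' deposited table. Of the 951 categories, 926 have an identifier number below 10000, so the table covers a limited range of GO. None of the 951 is named simply spindle or cell division. The mitotic categories are small, with at most 37 genes and 7 of the 16 with 5 or fewer, and which genes the authors counted as changed is not stated.

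Markers of the labelled cells and of others moved as well. Krt5, the basal keratin, had a base mean of 630448 and was 1.41-fold higher per the authors' deposited table, while Krt14, with 3 transcripts, had 40.3 and Trp63, with 8, was listed at 0. Of 7 tested keratinocyte markers, with a summed base mean of 941853, 1 rose and 4 fell, beside 16.7% of all genes tested that rose and 16.8% that fell (26.4% and 23.4% at a base mean of at least 100). The keratins of the layers above the basal one were lower, Krt1 by 2.49-fold (log2 -1.32 ± 0.18 SE) and Krt10 by 1.84-fold (log2 -0.88 ± 0.12 SE) per the authors' deposited table. The remaining markers of this list that fell, Dsg3 and Dsp, are not keratins and were lower by 1.31-fold and 1.13-fold per the authors' deposited table. Fibroblast markers fell in 4 of 7 cases and none rose, with Col1a1 at the highest base mean (11119, 1.34-fold lower per the authors' deposited table) and a summed base mean of 22853. Melanocyte markers fell in 1 of 4 (highest Pmel, base mean 8101, not passed), and immune markers in 3 of 4 (highest Cd68, base mean 416, not passed), per the authors' deposited table. Among immune markers Lyz2 (log2 -2.63 ± 0.34 SE, base mean 43.8) and C1qa (log2 -2.72 ± 0.39 SE, base mean 19.4) fell by more than any of the 58 genes changed per the authors' deposited table. Of the 2 endothelial markers Kdr rose 6.65-fold (log2 2.73 ± 0.18 SE, base mean 438) and the other fell per the authors' deposited table. Summed base means were 15003 for melanocyte, 490 for immune and 542 for endothelial markers. Ptprc, Cd74, Pdgfrb, Tyrp1 and Pecam1, each with several transcripts, were listed at 0. Levels per group are not in the table, and the part of these cells in the mitotic values was not tested.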

How the data were processed

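RNA sequencing of 3 pro-miR-148a and 3 miR-Control libraries entered as 1 comparison table that the authors deposited, 42885 RefSeq transcripts long. Per the file headers, its columns are the base mean (normalized signal averaged over libraries), the log2 fold change with a standard error and a Wald score, and the p-value before and after adjustment. The deposited p-values were adjusted by Benjamini-Hochberg over 11757 transcripts, to within a relative difference of 0.00885. The authors' GO table gives, per the file headers, counts of genes per category and p-values. Per the submitters' processing notes, DESeq2 and mm9 were used; no read counter or annotation is stated. Depth per library is unknown. Standard errors never exceeded 0.39 and no transcript below a base mean of 1 passed 0.25 in log2 size, so folds of weakly counted genes are understated.

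No differential test was run here. Transcripts were paired with symbols through RefSeq accessions (42739 matched, GRCm38.p6 annotation). The table has no coordinates, so those printed are GRCm38 only. UTRs of at least 20 bases came from protein-coding transcripts of GENCODE M21, and transcript lengths from the paired GENCODE transcripts. Motif searches were literal. Python 3.11.15 with pandas 2.3.3 was used, and the adjustment, recentring and motif search were checked on simulated data. The members, the roles, the lists and the tests were chosen with earlier results of these data known. The rule names all members, the highest and lowest passing gene of each other list (1 of these is not reported here), all tested CDK inhibitors, Rock1 and the most abundant marker of each cell type; Trp63, Krt14, Krt1, Krt10, Lyz2, C1qa, Lin9, Lin37, Ccne1 and markers listed at 0 were named after their values were seen.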

Additional observations from a re-analysis of the deposited data

How the results depend on the processing

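The count of 32 risers was unchanged with recentring by 0.05 (log2), an adjusted p under 0.01, and an adjustment over all transcripts with a p-value. The count was 29 by Bonferroni and 28 at 1.5-fold or more, and no member fell under any of these. Taking the transcript of lowest adjusted p, or a base mean of at least 100, could not change the count. No tested member had another transcript with an adjusted p, and the lowest base mean of a riser was 351. The median was 0.67 over the 50 members with any p-value, 12 of them below a base mean of 2. Risers in the other cell cycle lists numbered 40 by Bonferroni and 30 at 1.5-fold or more, with 1 that fell at 1.5-fold or more in place of 8. Mad2l1 turned to -0.025 after recentring. The 8mer alone left 2 tested members with a miR-148a site. No paired analysis was possible because the deposited table has no column per library, and for the same reason no library could be left out. The reading of the sign rests on a difference of medians of -0.08 (-0.11 with the 8mer, -0.07 in any annotated UTR). The alternatives for the other lists, for single members, for the sign and for the median over all members with a p-value were chosen after seeing the data.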

Other observations

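Genes outside the 58 that hold a CHR and a CCAAT match in 1 promoter window, within 150 bases before to 50 after the start, numbered 258 among the genes tested. Of these, 60 rose (23.3%) and 32 fell (12.4%), beside 16.7% and 16.7% of 8254 genes without such a window. When the genes of the other lists were also left out, 45 of 238 rose (18.9%) and 32 fell (13.4%), beside 16.4% and 16.7% of 8151 genes. In the other lists, a CHR within the same distance stood in 16 of 25 windows of other spindle and cytokinesis genes (64.0%), 8 of 17 windows of outer kinetochore and checkpoint genes (47.1%), 3 of 22 windows of DNA replication genes (13.6%) and 1 of 20 windows of centrosome and gamma-tubulin genes (5%), beside 7.93% of the windows of genes tested. These shares describe letters and were not tested.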
